A study of Mus musculus with 6 samples.

Results

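The data are whole-transcript microarray values of total RNA from the soleus, a slow hindlimb muscle, and concern the 43 genes whose array symbol names a collagen alpha chain, out of 23152 genes with a symbol of their own. Members were chosen by symbol alone (Col, a type number, a, a chain number), and they held 1226 of the 233753 probe sets annotated to exactly 1 gene. Control mice (WT) were Gna13 flox/flox, with the gene for the G protein subunit Gα13 flanked by loxP sites. Muscle knockout mice (Gna13 MKO, here MKO) were Ckmm-Cre; Gna13 flox/flox, with Cre driven by the muscle creatine kinase promoter, which is active in striated muscle fibres. All mice were male, 18 weeks old and fasted for 14 h, and each group had 3 mice with 1 array each. The labels name Cre for the MKO mice alone, so effects of Cre itself and of the deletion cannot be told apart. In whole muscle, fewer cells of a type and less RNA per cell cannot be told apart either.

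Collagens are secreted or membrane-bound proteins whose alpha chains wind into rope-like helices and give tissues their tensile strength. In muscle, fibril-forming types I, III and V make up most of the connective tissue between fibres and are made chiefly by fibroblasts and fibro-adipogenic progenitors. Type IV forms the network of the basement membrane around fibres and capillaries, and type VI links that membrane to the surrounding matrix. Cre in this line acts in the fibres, and most collagen transcripts of muscle come from other cells.

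Values are log2 values from robust multi-array averaging, and a gene's value on an array is the mean of its probe sets, so levels are not compared between genes. The median probe set lay between 4.87 and 4.95 on the 6 arrays. Markers of slow fibres averaged 9.66 to 9.92 and those of muscle fibres in general 11.1 to 11.2 per array. The labelled tissue's fibre markers were thus bright. As a check of the genotype, Gna13 probe set 17257825 stood at 5.48, 6.23 and 6.16 in the WT mice and at 3.43, 4.25 and 4.33 in the MKO mice, so the groups did not overlap there. Gna13 probe sets 17257824, 17257828 and 17257829 went the other way, with every MKO value above every WT value and differences of 0.65 (SE 0.20), 0.51 (SE 0.13) and 0.67 (SE 0.13). The remaining 3 overlapped, and the gene's mean differed by 0.04 (SE 0.13), so the genotype check rests on 1 of 7 probe sets. Which exon each one reads was not looked up here.

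Most collagen genes had a lower mean in MKO, and none passed the adjusted threshold. Of the 43 genes, 35 were on the lower side and 8 on the higher, with a median log2 difference (MKO minus WT) of −0.13, while over all 23152 genes 53.4% were on the lower side and the median was −0.01. Averaged over the 43 genes and set against the WT mean, the arrays stood at 0.02, −0.001 and −0.02 in WT. In MKO they stood at −0.13, −0.10 and −0.16, below all WT arrays, and these means were not tested. Among genes above the median gene level, where 33 of the collagens lie, 61.6% were on the lower side, against 29 of those 33. With limma, 0 of the 43 passed an adjusted p of 0.05 (0% of all genes did), and each had an adjusted p of 0.9997. At an unadjusted p under 0.05, 2 collagens were lower (Col8a1 and Col6a2) and 0 higher, where 2.41% of all genes were lower and 1.92% higher. A local pooled error test, the kind the submitters name, called 0 collagens as well (0.108% of all genes).

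**Figure D1:**
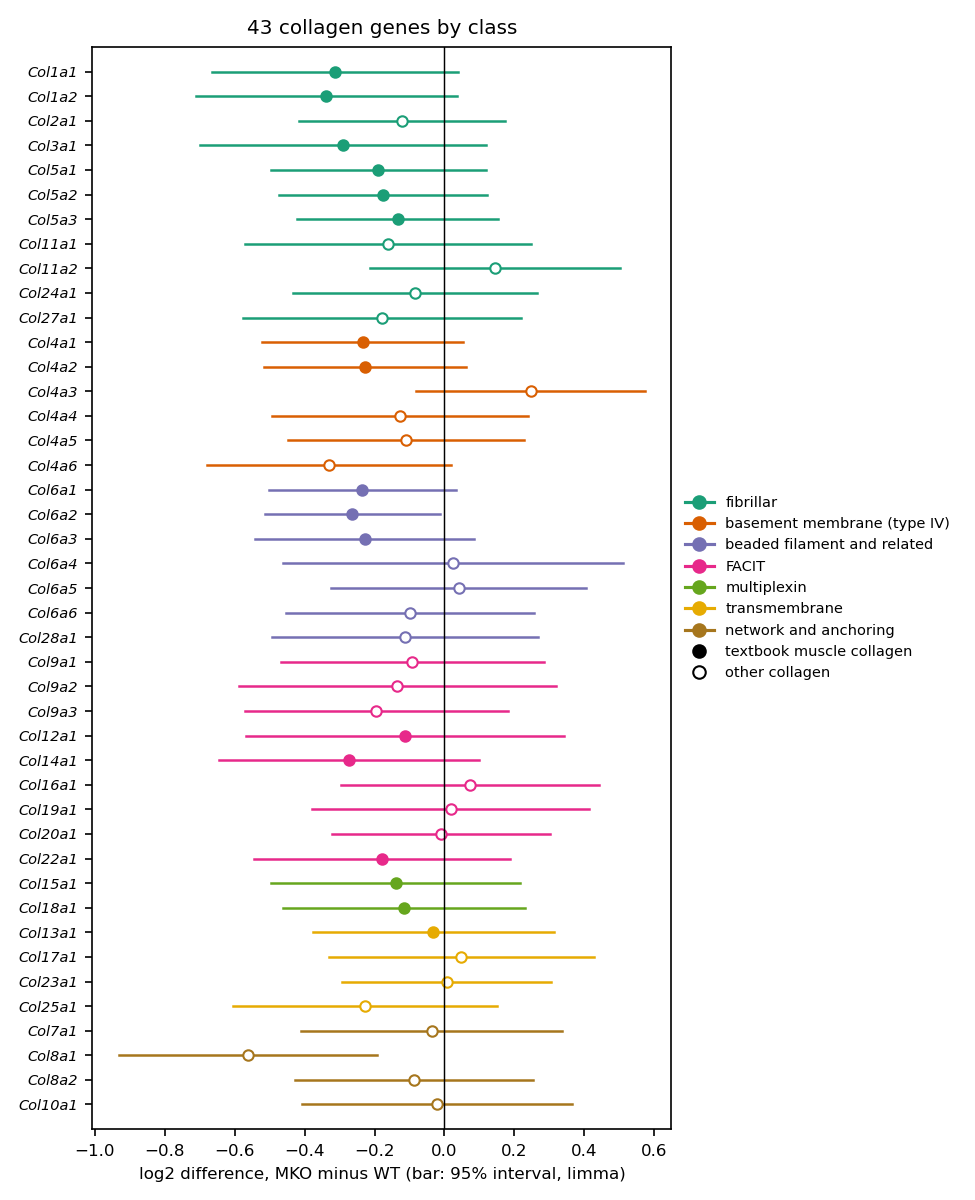
The log2 difference between MKO and WT (horizontal axis) is shown for each of the 43 collagen genes, coloured by class, with 95% intervals from limma over 3 and 3 mice. Filled points are the 17 collagens that textbooks place in muscle connective tissue, basement membranes or junctions, chosen with earlier results known. All 17 lie left of 0, and the interval excludes 0 for Col8a1 and Col6a2.

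Collagens that muscle is known to make and the other collagens are given apart, and the difference between these lists was not tested. A list of 17 such chains was taken from textbook knowledge, but with earlier results of these data known. It had 17 of 17 on the lower side with a median of −0.23, from −0.34 for Col1a2 to −0.03 for Col13a1. The other 26 collagens, many of them known from cartilage, skin, eye or brain, had 18 of 26 on the lower side with a median of −0.09. The 17 shared an order of arrays as well. MKO replicate 1 was the lowest of the 6 arrays in 14 of the 17 (23.9% of all genes), and WT replicate 3 the lowest WT array in 13 (37.2% of all genes). In the other 26 these counts were 5 and 3. Averaged over the 17 genes and set against the WT mean, the arrays stood at 0.04, 0.10 and −0.14 in WT and at −0.41, −0.05 and −0.15 in MKO, so the groups overlapped. Without MKO replicate 1 the lists had the same median, −0.12, with 15 of 17 and 22 of 26 on the lower side. With quantile normalization and without that array, the medians were −0.13 (14 of 17) and −0.07 (20 of 26). The gap between the lists was thus absent or smaller without that array. Without WT replicate 3 the medians were −0.27 (16 of 17) and −0.04 (15 of 26). Col8a1 and Col4a6, among the largest differences of all, are not in the list of 17. After quantile normalization 17 of 17 remained on the lower side with a median of −0.18.

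**Figure D2:**
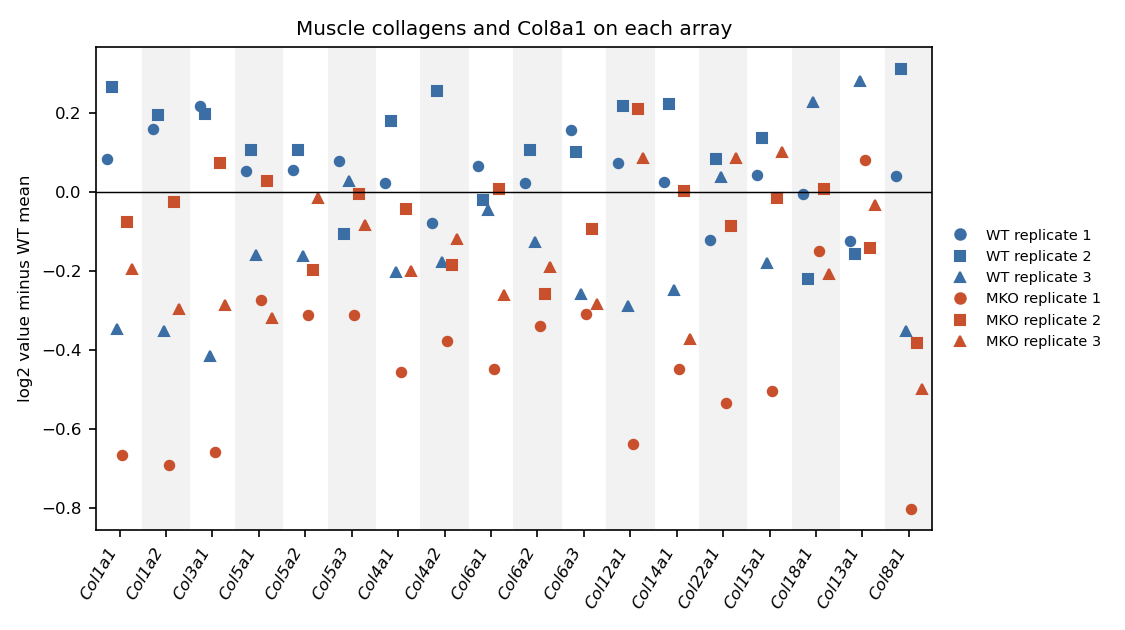
Each point is the log2 value of a collagen gene on 1 array minus the mean of the 3 WT arrays (vertical axis), for the 17 muscle collagens and Col8a1. MKO replicate 1 (orange circles) is lowest in 14 of the 17, WT replicate 3 (blue triangles) is lowest of the WT arrays in 13, and in Col8a1 all MKO points lie below all WT points.

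Promoters are shown for the genes on which the values turn, since Col1a2 and Col3a1 followed the same arrays and Col6a2 and Col8a1 had the smallest p. Each run is the 250 bases before the transcription start in RefSeq (GRCm38.p6), 5′ to 3′ on the gene's strand, and for Col6a2 the more upstream of 2 annotated starts was used. Capitals mark every match, on either strand, to CCAAT (bound by NF-Y), TATAAA (the TATA box), GGGCGG (bound by Sp1), GGAATG (bound by TEAD factors) or the CArG box (bound by SRF). Col1a2 lies at chr6:4505368-4505617 on the plus strand, Col3a1 at chr1:45311288-45311537 on the plus strand, Col6a2 at chr10:76623631-76623880 on the minus strand and Col8a1 at chr16:57754738-57754987 on the minus strand.
Col1a2: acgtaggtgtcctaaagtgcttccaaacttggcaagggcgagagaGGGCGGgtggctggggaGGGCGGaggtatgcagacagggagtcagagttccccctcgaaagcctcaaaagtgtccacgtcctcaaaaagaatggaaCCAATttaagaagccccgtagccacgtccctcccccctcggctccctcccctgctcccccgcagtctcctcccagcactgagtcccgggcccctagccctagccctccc
Col3a1: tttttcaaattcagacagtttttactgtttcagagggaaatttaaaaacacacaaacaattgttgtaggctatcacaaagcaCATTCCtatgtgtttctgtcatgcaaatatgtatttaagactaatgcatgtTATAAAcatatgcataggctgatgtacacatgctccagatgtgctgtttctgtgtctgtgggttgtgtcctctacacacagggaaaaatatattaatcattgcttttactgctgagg
Col6a2: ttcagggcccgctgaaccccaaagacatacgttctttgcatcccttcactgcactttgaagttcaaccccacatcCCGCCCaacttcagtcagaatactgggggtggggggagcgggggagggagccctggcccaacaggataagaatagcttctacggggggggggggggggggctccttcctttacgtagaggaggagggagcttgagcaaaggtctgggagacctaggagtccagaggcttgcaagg
Col8a1: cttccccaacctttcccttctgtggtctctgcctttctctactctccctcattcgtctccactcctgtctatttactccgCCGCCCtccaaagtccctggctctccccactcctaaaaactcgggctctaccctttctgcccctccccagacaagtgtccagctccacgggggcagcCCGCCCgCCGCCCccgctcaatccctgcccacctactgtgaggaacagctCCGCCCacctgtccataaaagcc
Col1a2 had 2 GGGCGG matches and a CCAAT at −109, counted from the start. In Col3a1 a TATAAA began at −117 and a GGAATG, on the opposite strand, at −168. Col6a2 had 1 GGGCGG on the opposite strand, and Col8a1 had 4. The window of the other Col6a2 start, which is not printed, had 3 GGGCGG matches and 1 GGAATG. None of the 4 printed windows held a CArG box, which 1 of 38 collagen windows held (2.63%, against 1.47% of 32851 RefSeq windows). GGGCGG stood in 57.9% of the collagen windows and 32.7% of all windows, CCAAT in 34.2% and 33.8%, TATAAA in 13.2% and 12.4%, and GGAATG in 10.5% and 12.6%. Windows were on hand for 35 of the 43 genes, and a match is a description of letters, not of binding.

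Among the fibril-forming collagens, the chains of types I and III had differences near −0.3 and a wide spread between mice. Col1a1, which gives the main chain of type I collagen, stood at 9.23, 9.41 and 8.80 in WT and at 8.48, 9.07 and 8.95 in MKO. Its partner chain Col1a2 stood at 8.21, 8.25 and 7.70 in WT and at 7.36, 8.03 and 7.76 in MKO. Col3a1, whose product makes the fine reticular fibres of young or soft connective tissue, stood at 8.23, 8.21 and 7.60 against 7.36, 8.09 and 7.73. In each of these genes MKO replicate 1 was lowest, WT replicate 3 came next, and WT replicates 1 and 2 were the highest, so the groups overlapped. The log2 differences were −0.31 for Col1a1 (SE 0.16, 95% interval −0.67 to 0.04), −0.34 for Col1a2 (SE 0.17, interval −0.71 to 0.04) and −0.29 for Col3a1 (SE 0.19, interval −0.70 to 0.12). Without MKO replicate 1 they were −0.14, −0.16 and −0.11, and without WT replicate 3 they were −0.49, −0.51 and −0.50.

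Type V collagen sits inside type I fibrils and limits their width, and its chains followed at smaller sizes. Col5a1 stood at 5.96, 6.02 and 5.75 in WT against 5.64, 5.94 and 5.59 in MKO (difference −0.19, SE 0.14). Col5a2 stood at 5.96, 6.01 and 5.74 against 5.59, 5.71 and 5.89 (−0.17, SE 0.14). The third chain, Col5a3, stood at 6.07, 5.89 and 6.02 against 5.68, 5.99 and 5.91 (−0.13, SE 0.13). MKO arrays reached into the WT range in each of them. The type XI chain Col11a1, which can pair with type V chains, differed by −0.16 (SE 0.19), and without MKO replicate 1 by 0.03. Its partner Col11a2 was higher in MKO by 0.14 (SE 0.17), at 4.86, 5.24 and 5.21 in WT against 5.51, 5.11 and 5.12 in MKO, and here MKO replicate 1 was the highest array. Col27a1 (−0.18, SE 0.18) likewise had its highest value, 5.78, in MKO replicate 1, and Col24a1 differed by −0.08 (SE 0.16). Col2a1, the main cartilage collagen, stood at 5.04, 4.98 and 5.05 in WT and at 4.85, 4.96 and 4.90 in MKO, a small difference of −0.12 (SE 0.14) in which the groups did not overlap.

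Of the 6 basement membrane chains 5 were on the lower side. Col4a1 and Col4a2, which form the type IV network of nearly all tissues, lay in MKO below WT by like amounts. Col4a1 stood at 7.52, 7.68 and 7.29 in WT and at 7.04, 7.45 and 7.29 in MKO (difference −0.23, SE 0.13, interval −0.52 to 0.05). Col4a2 stood at 7.0, 7.34 and 6.90 in WT and at 6.70, 6.89 and 6.96 in MKO (−0.23, SE 0.13, interval −0.52 to 0.06). In both genes MKO replicate 1 was lowest and the groups overlapped through WT replicate 3. Without WT replicate 2 the differences were −0.14 and −0.10, and without MKO replicate 1 they were −0.12 and −0.15. The RefSeq starts of this pair lie 21 bases apart on opposite strands.

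The restricted type IV chains, known from kidney, lung, eye and smooth muscle, were dimmer. Neighbours had the same sign in Col4a5 and Col4a6 and opposite signs in Col4a3 and Col4a4. Col4a3 stood at 4.06, 3.96 and 4.0 in WT and at 4.30, 4.19 and 4.26 in MKO, a difference of 0.25 (SE 0.15, interval −0.08 to 0.57) and the largest on the higher side among collagens. Its neighbour Col4a4, the other gene of that pair, had a difference of −0.13 (SE 0.17). Col4a6 stood at 4.31, 4.08 and 4.35 in WT and at 3.97, 3.80 and 3.98 in MKO, a difference of −0.33 (SE 0.16, interval −0.68 to 0.02). Col4a5, whose start lies 1343 bases away on the opposite strand, differed by −0.11 (SE 0.16). Both Col4a3 and Col4a6 had groups that did not overlap, but both lie below the median gene level of 4.41. With bright probe sets alone, meaning those above the median probe set, their differences were 0.09 and −0.12.

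Type VI collagen, which forms beaded filaments beside the basement membrane and whose loss causes muscle disease, had its 3 main chains lower by nearly the same amount. Col6a2 stood at 6.84, 6.93 and 6.69 in WT and at 6.48, 6.56 and 6.63 in MKO, a difference of −0.26 (SE 0.12, interval −0.51 to −0.01, unadjusted p = 0.0404, 1.2-fold lower). The highest MKO array was thus below the lowest WT array. Col6a1 stood at 7.46, 7.38 and 7.35 against 6.95, 7.41 and 7.14 (−0.23, SE 0.12). Col6a3 stood at 6.17, 6.11 and 5.75 against 5.70, 5.92 and 5.73 (−0.23, SE 0.14). In the latter 2 the groups overlapped, through MKO replicate 2 in Col6a1 and through WT replicate 3 in Col6a3. Of the 18 Col6a2 probe sets 15 were on the lower side, and the widest difference, −1.53, belonged to a dim one. With bright probe sets alone the gene's difference was −0.17. The minor chains Col6a4, Col6a5 and Col6a6 and the related Col28a1 are among the 12 dim or weakly differing members.

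Fibril-associated collagens with interrupted helices (FACIT) bind the surface of fibrils. Col14a1 stood at 5.27, 5.47 and 4.997 in WT and at 4.80, 5.25 and 4.87 in MKO (difference −0.27, SE 0.17). Col12a1, found in tendon and muscle fascia, stood at 5.86, 6.0 and 5.49 against 5.14, 5.99 and 5.87 (−0.11, SE 0.21). Without MKO replicate 1 the difference was 0.15. Col22a1, a marker of the myotendinous junction, stood at 5.24, 5.45 and 5.40 in WT and at 4.83, 5.28 and 5.45 in MKO (−0.18, SE 0.17), and without MKO replicate 1 the difference was −0.0001. Col16a1 was higher by 0.07 (SE 0.17), with arrays at 4.99, 4.66 and 5.04 in WT and at 5.24, 4.92 and 4.75 in MKO. The cartilage chain Col9a2 differed by −0.14 (SE 0.21) with an MKO range of 5.18 to 6.22. Its highest array was MKO replicate 1, the lowest in most muscle collagens, and without it the difference was −0.41.

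Collagens XV and XVIII (multiplexins) belong to basement membranes and the zone beside them, and their C-terminal fragments restrain vessel growth. Col15a1 stood at 6.19, 6.28 and 5.96 in WT and at 5.64, 6.13 and 6.25 in MKO (difference −0.14, SE 0.16), and without MKO replicate 1 it was 0.04. Col18a1 stood at 4.87, 4.65 and 5.10 in WT and at 4.72, 4.88 and 4.67 in MKO (−0.12, SE 0.16). The Col18a1 sign rests on the probe set summary, since the difference was 0.36 with the median of its 26 probe sets in place of their mean. Among transmembrane collagens, Col13a1, a protein of the neuromuscular junction, stood at 4.94, 4.90 and 5.34 against 5.14, 4.92 and 5.03 (−0.03, SE 0.16). Col25a1, needed for motor axons to enter muscle, stood at 4.14, 4.69 and 4.38 against 4.27, 4.10 and 4.17 (−0.23, SE 0.17). Col17a1, the hemidesmosome collagen of skin, was higher by 0.05 (SE 0.17), at 4.43, 4.30 and 4.48 in WT against 4.74, 4.46 and 4.16 in MKO. In none of these were the groups apart.

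Col8a1 had the lowest mean difference and the smallest p of all 43. It encodes a chain of the short-chain network collagen VIII, which endothelium and vascular smooth muscle make. Its values were 6.64, 6.91 and 6.24 in WT and 5.79, 6.21 and 6.10 in MKO, so the groups were apart, if narrowly (6.21 against 6.24). The WT mean was 6.59 ± 0.33 and the MKO mean 6.03 ± 0.22 (SD, 3 mice each), a log2 difference of −0.56 (SE 0.17, interval −0.93 to −0.19) or a 1.48-fold lower value. The unadjusted p was 0.00605 and the limma adjusted p 0.9997, and over the alternatives the unadjusted p ran from 0.000671 to 0.0663 with adjusted values down to 0.493. All 5 of its probe sets were on the lower side, from −0.72 to −0.39. Leaving out MKO replicate 1 gave −0.44 and leaving out WT replicate 2 gave −0.41. Its partner chain Col8a2 is among the members with small differences. Those 12 members (Col6a4, Col6a5, Col6a6, Col7a1, Col8a2, Col9a1, Col9a3, Col10a1, Col19a1, Col20a1, Col23a1 and Col28a1) lay between −0.19 and 0.04, 8 on the lower side and 4 on the higher. The groups overlapped in all 12, but Col2a1, Col4a3 and Col4a6, whose groups did not, were set apart after their values were seen. The overlap thus follows from that choice.

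Counted over all 43, the groups did not overlap in 4 collagens on the lower side (Col2a1, Col4a6, Col6a2 and Col8a1) and in 1 on the higher (Col4a3). Over all genes 4.99% had every MKO array below every WT array and 4.26% the reverse, so the collagens' 5 of 43 (11.6%) is close to the 9.25% of all genes. By class, the share on the lower side was 10 of 11 for fibril-forming chains (median −0.17), 5 of 6 for type IV (−0.18) and 5 of 7 for type VI and its relatives (−0.11). It was 7 of 9 for FACIT collagens (−0.11), 2 of 2 for multiplexins (−0.13), 2 of 4 for transmembrane collagens (−0.01) and 4 of 4 for network and anchoring collagens (−0.06). Without MKO replicate 1 the medians were −0.11 for fibril-forming chains, −0.15 for type IV and −0.17 for type VI and its relatives. In the same setting they were −0.06 for FACIT, −0.03 for multiplexin, −0.09 for transmembrane and −0.16 for network and anchoring collagens. Without WT replicate 3 they were −0.26 for fibril-forming chains, −0.17 for type IV and −0.22 for type VI and its relatives. There the other classes had −0.09 (FACIT), −0.12 (multiplexin), 0.08 (transmembrane) and −0.04 (network and anchoring).

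Single probe sets of the muscle collagens were also mostly on the lower side. Of 531 probe sets of the 17 muscle collagens, 71.6% were on the lower side, against 52.1% of all 233753 probe sets. Among their 421 bright probe sets the share was 74.6% with a median difference of −0.21, against 53.2% and −0.02 for all bright probe sets. Bright probe sets of the other 26 collagens were lower in 53.6% of 293. The probe sets of a gene share their arrays and are not replicates. Nearly all probe sets of Col3a1 (22 of 23), Col1a1 (23 of 26), Col1a2 (30 of 35) and Col4a1 (24 of 28) were on the lower side, while in Col18a1 it was 14 of 26. None of the 1226 passed an adjusted p of 0.05 in limma, nor did any probe set of the table (0%).

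**Figure D3:**
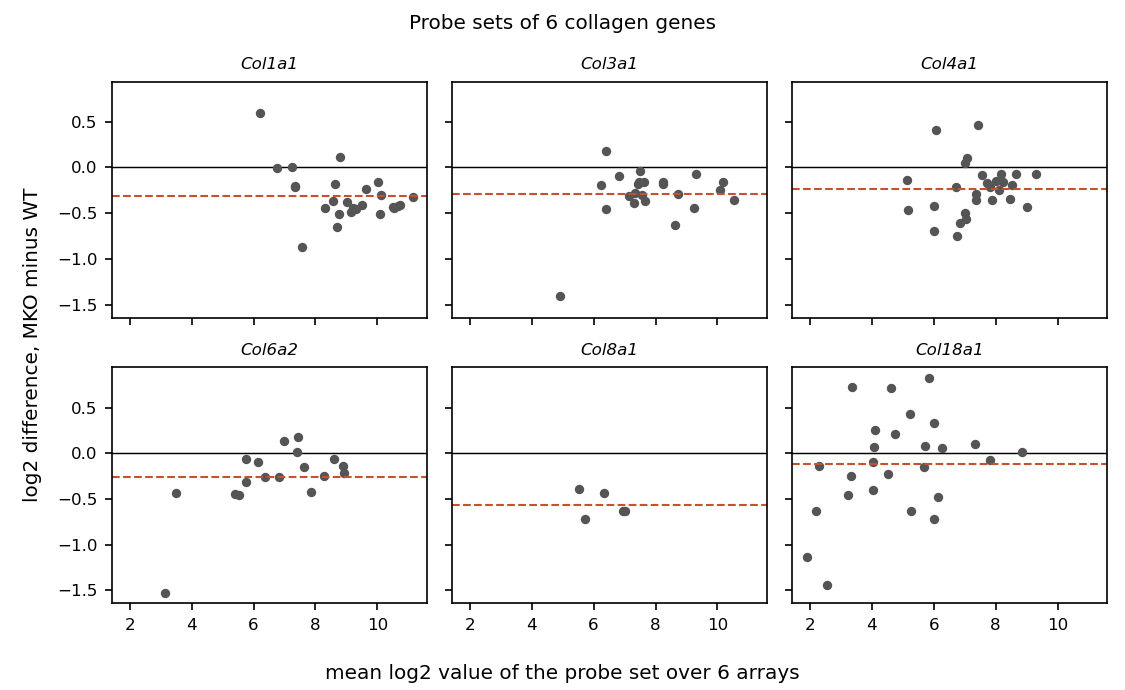
Each point is a probe set of the named collagen gene, with its mean log2 value over 6 arrays (horizontal axis) and its log2 difference between MKO and WT (vertical axis); the dashed line is the gene's difference. In Col8a1 all 5 lie below 0, in Col3a1 22 of 23 do, and in Col18a1 they scatter on both sides.

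Genes that fold, process, bind or break down collagen were given by lists, none with a member past the adjusted threshold. Beside the counts, 53.4% of all genes were on the lower side. Among genes above the median gene, where most listed genes lie, the share was 61.6%. Of 21 measured genes of collagen folding and modification, 14 were on the lower side (median −0.06), close to that share. Leprel1, a prolyl 3-hydroxylase of collagen now named P3h2, stood at 9.01, 9.20 and 9.20 in WT and at 8.71, 8.72 and 8.66 in MKO. Its groups lay well apart, with a difference of −0.44 (SE 0.09, unadjusted p = 0.000204, limma adjusted p = 0.625), and its lowest array was MKO replicate 3. Over the 17 alternatives its adjusted p was at least 0.346. Sparc, a collagen-binding chaperone of the matrix, differed by −0.28 (SE 0.13). Of 14 genes of procollagen processing and crosslinking, 11 were on the lower side (median −0.09). The crosslinking enzyme Lox stood at 5.72, 5.92 and 5.44 in WT and at 5.36, 5.06 and 5.13 in MKO, with no overlap (−0.51, SE 0.16, unadjusted p = 0.00655).

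Partners of collagen fibrils were on the lower side in 13 of 14 (median −0.11). Thbs2, whose loss disturbs fibril shape in mice, stood at 7.67, 7.79 and 7.72 in WT and at 7.40, 7.41 and 7.41 in MKO (−0.32, SE 0.10), the groups being apart. The proteoglycan gene Bgn differed by −0.30 (SE 0.10), again without overlap. All 12 basement membrane partners were on the lower side (median −0.17), with Pxdn, the peroxidase that crosslinks type IV collagen, at −0.50 (SE 0.16) and Sparcl1 at −0.28 (SE 0.10). Of 12 collagen receptors 10 were on the lower side (median −0.19). Itga1, the integrin chain that binds type IV collagen, stood at 7.17, 7.19 and 6.77 in WT and at 6.48, 6.58 and 6.84 in MKO (−0.41, SE 0.14). Of 12 genes of collagen breakdown 9 were on the lower side (median −0.10), with the gelatinase Mmp2 at −0.32 (SE 0.12). Of 6 protease inhibitors 5 were (median −0.11), with Reck at −0.33 (SE 0.14, and 0.02 with bright probe sets alone). Of 16 genes of the TGF-beta pathway, a main inducer of collagen genes, 11 were (median −0.06). That is close to the 61.6% of all genes above the median gene. Some of these medians depended on single arrays, others less. Without MKO replicate 1, folding and modification genes had 9 of 21 on the lower side (median 0.01) and basement membrane partners 8 of 12 (−0.07). In the same setting fibril partners had 9 of 14 (−0.08), protease inhibitors 5 of 6 (−0.03) and TGF-beta genes 9 of 16 (−0.03). The medians changed little there for collagen receptors (9 of 12, −0.17), processing and crosslinking (11 of 14, −0.08) and breakdown (8 of 12, −0.10). Without WT replicate 3 the medians were −0.15 for processing and crosslinking, −0.28 for fibril partners, −0.18 for breakdown and −0.18 for protease inhibitors, all further from 0.

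Lists of cell type markers, which hold no collagen, are given on the same arrays. Beside their counts, 53.4% of all genes and 61.6% of those above the median gene were on the lower side. Fibroblast and fibro-adipogenic progenitor markers were on the lower side in 11 of 12 (median −0.17). Their mean against the WT mean was 0.13, −0.03 and −0.09 in WT and −0.40, −0.05 and −0.08 in MKO, with mean levels of 7.04 to 7.26 in WT and 6.72 to 7.08 in MKO. Tenocyte markers (8 of 9 on the lower side) stood at 0.18, 0.22 and −0.39 in WT and at −0.28, −0.26 and −0.10 in MKO, with levels of 6.08 to 6.68 and 6.19 to 6.37. MKO replicate 1 was the lowest array for fibroblast markers and WT replicate 3 for tenocyte markers, the same 2 arrays that were low in types I and III collagen. Endothelial, macrophage and pericyte lists shared this order. In them MKO replicate 1 was lowest of all arrays (−0.38, −0.32 and −0.14). WT replicate 3 was lowest of the WT arrays (−0.18, −0.11 and −0.07). Endothelial markers (8 of 9) spanned 6.79 to 7.14 in WT and 6.59 to 6.95 in MKO, and macrophage markers (7 of 8) 5.23 to 5.53 and 5.02 to 5.23. Pericyte and smooth muscle markers (6 of 9) spanned 6.95 to 7.07 and 6.88 to 7.09. The fibroblast list shares Dcn, Dpt and Lum with the list of fibril partners. Tenocyte markers share Fmod and Kera with it, and chondrocyte markers share Comp. Satellite cell markers share Sdc4 with the collagen receptors. The part of these cell types in the collagen differences was not tested.

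With all arrays, the lists of muscle fibre, slow fibre, chondrocyte, satellite cell and adipocyte markers had medians nearer 0. Pericyte and smooth muscle markers did as well (−0.02), while Schwann cell markers had a median of 0.18. Markers of muscle fibres in general (6 of 8 on the lower side) had a median of −0.03, as did slow fibre markers (5 of 8). Chondrocyte markers (3 of 7 on the lower side) had a median of 0.02. Of these 7, Comp and Sox9 lay above the median gene and the others below it, so their mean level (4.26 to 4.601) describes no single member. Satellite cell markers (3 of 6) and adipocyte markers (3 of 6) had medians of 0.03 and −0.05. The adipocyte list spread widely between arrays, with means of 0.13, −0.35 and 0.22 in WT and −0.16, 0.57 and −0.49 in MKO. Without MKO replicate 1, fibroblast markers were on the lower side in 7 of 12 (median −0.07) and endothelial markers in 6 of 9 (−0.01), beside 15 of 17 for the muscle collagens (−0.12) and 22 of 26 for the other collagens (−0.12). In that setting tenocyte markers were lower in 6 of 9 (−0.15), macrophage markers in 6 of 8 (−0.09) and pericyte markers in 5 of 9 (−0.008). Without WT replicate 3 the medians of tenocyte and endothelial markers were −0.38 and −0.23.

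**Figure D4:**
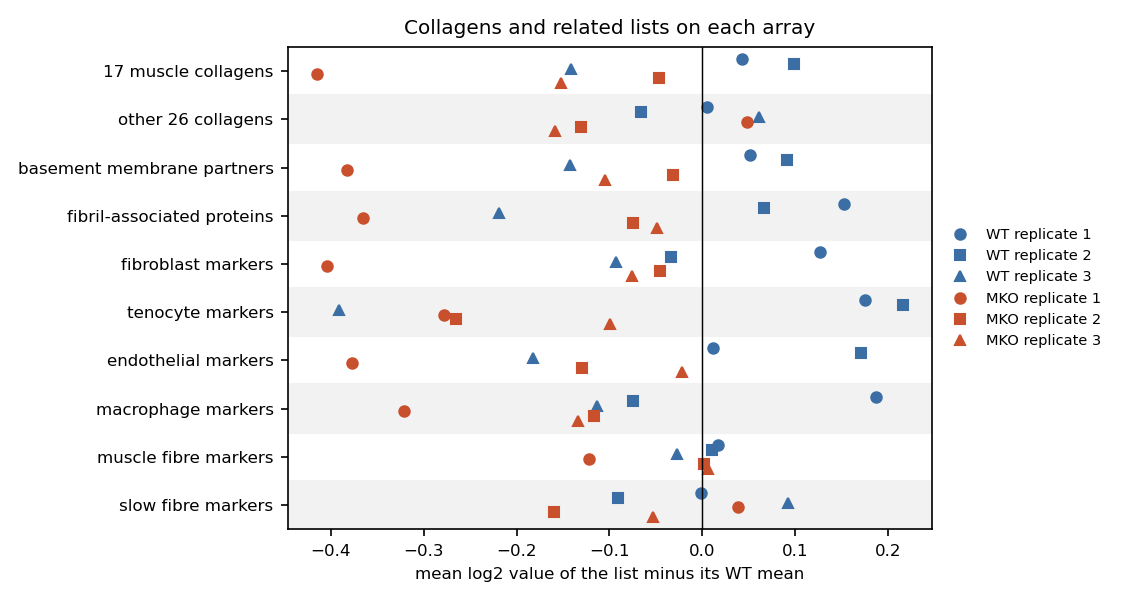
For each list (rows), the mean log2 value on an array minus the list's mean over WT arrays is plotted on the horizontal axis, with colour for the group and shape for the replicate. MKO replicate 1 is at −0.41 for the 17 muscle collagens and at −0.40 for fibroblast markers, and at 0.05 for the other 26 collagens.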

How the data were processed

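Each of 6 arrays measured the soleus RNA of 1 mouse (3 WT, 3 MKO), and the labels call the replicates biological. The deposited log2 values were made by the authors with robust multi-array averaging in Affymetrix Expression Console, per the submitters' processing notes. No software version, genome build or scan batch was found in the labels. The table had 269751 probe sets, of which 233753 carried exactly 1 symbol in the platform's annotation (5106 several, 30892 none, both left out), and symbols are the array's. A gene's value was the mean of its probe sets. The mean takes in dim probe sets as well.

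WT and MKO were compared with limma 3.58.1 in R 4.3.3 (variance trend, two-sided, Benjamini-Hochberg adjustment over 23152 genes, threshold 0.05), and all p-values and 95% intervals come from it unless another tool is named. With 3 mice a group, an exact two-sided permutation test cannot give less than 0.1. The fit was tested on simulated data. Precision is limited by having 6 arrays. The local pooled error test that the series' design text names was re-implemented as an alternative. Other alternatives changed the moderation, array weights, scaling, filters, probe set summary or arrays used. Those for lists without MKO replicate 1 or WT replicate 3 were chosen after seeing the data. Members, the list of 17 and all gene lists were chosen with earlier results of these data known. Values per array are given for those 17, for other collagens with an unadjusted p under 0.05 and for the 3 largest differences each way above the median gene. Col2a1, Col4a3, Col4a6, Col9a2, Col25a1 and Col27a1 were added after their values were seen. From each pathway list up to 3 genes of smallest p were eligible, and those named had an unadjusted p under 0.05. Some listed pathway and marker genes are not reported here, and counts are over the measured members. Tables and figures were made with Python 3.11.15.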

Additional observations from a re-analysis of the deposited data

How the results depend on the processing

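Under the 17 alternatives no collagen gene passed the adjusted threshold (lowest adjusted p 0.493), and no collagen probe set did with bright probe sets alone or with an array left out. The count on the lower side ran from 30 (local pooled error test) to 41 (without WT replicate 2) of 43, with 31 without WT replicate 3 or without MKO replicate 3, and was 29 of the 33 genes above the median level. The median difference of −0.13 was −0.0990 after quantile normalization, −0.0999 with the median of probe sets and −0.101 with bright probe sets. The 2 genes at an unadjusted p under 0.05 became 1 with median centring, 0 with the median of probe sets, 1 with bright probe sets and 4 with quantile normalization without MKO replicate 1, and 1 to 8 with an array left out (8 without WT replicate 3, 7 without MKO replicate 2). The share of all genes at that threshold was 4.33% in the main fit and is not given for the alternatives. These counts therefore cannot be read as a result about collagens.

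Of 43 collagens, 22 changed sign under some alternative, 5 of them muscle collagens and 10 among the 12 given by range. With the median of probe sets the values were 0.0933 for Col11a1, 0.1478 for Col13a1, −0.0247 for Col16a1, 0.3642 for Col18a1, 0.091 for Col4a5 and 0.1475 for Col9a2. Bright probe sets alone gave 0.042 for Col13a1, −0.0085 for Col17a1, 0.0195 for Col4a5 and 0.0238 for Reck. The local pooled error test, which compares medians, gave −0.0908 for Col11a2, 0.0141 for Col12a1, 0.0898 for Col13a1, −0.0683 for Col16a1 and 0.0245 for Col24a1. Quantile normalization without MKO replicate 1 gave 0.0592 for Col11a1, 0.1521 for Col12a1, 0.0309 for Col15a1, −0.0356 for Col16a1, −0.0386 for Col17a1, 0.0023 for Col22a1 and 0.0113 for Col24a1. With an array left out, Col11a1 ran from −0.2965 to 0.0273, Col12a1 from −0.2759 to 0.1487, Col13a1 from −0.11 to 0.1087, Col15a1 from −0.2593 to 0.0438, Col16a1 from −0.0608 to 0.1808, Col17a1 from −0.0951 to 0.1946, Col24a1 from −0.1465 to 0.0395 and Col9a2 from −0.4092 to 0.112. The cause of these changes was not tested.

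The replicate block left 0 collagens called, 35 on the lower side and 3 at an unadjusted p under 0.05. Same-numbered arrays had deviations that correlated at −0.0881, 0.0907 and −0.236 over all genes. The labels do not say whether the numbers pair the mice, and with 3 arrays a group these values cannot decide it. Depth is not defined for arrays, and probe sets near background limit the dim members.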

Other observations

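The 4 measured Schwann cell markers (Mag, Mbp, S100b and Sox10) were the 1 list with every measured member on the higher side. Their mean against WT was 0.10, −0.08 and −0.02 in WT and 0.18, 0.20 and 0.16 in MKO, with a median difference of 0.18. Mean levels of 3.79 to 4.07 lie below the median gene of 4.41, and no member had an unadjusted p under 0.05.

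Among endothelial markers, Cldn5, a tight junction protein of vessels, was picked after its values were seen. It stood at 5.53, 5.98 and 5.72 in WT and at 4.92, 5.05 and 5.07 in MKO, so the groups did not overlap. The difference was −0.73 (SE 0.15, limma adjusted p = 0.666). The macrophage marker Cd68, picked in the same way, differed by −0.82 (SE 0.26), and its groups overlapped.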
